A study of Arabidopsis thaliana with 16 samples.

Results

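AT3G62930 and AT2G30540 encode CC-type glutaredoxins, and their transcripts were followed here through all 8 groups of an Arabidopsis thaliana seedling experiment on cytokinin and DELLA signalling. They are 2 of the 13286 loci that a named probe set measured, each by 1 probe set. Both were chosen by the measurements themselves. AT3G62930 stood 2nd and AT2G30540 9th among the named probe sets that rose with dexamethasone in the transgenic line in paclobutrazol, and AT3G62930 was also picked from the same treatment with GA3 and from the response of the line net of that of wild type. Those values are therefore given as descriptions with no test, and tests are given for BA in wild type and, for AT2G30540, for dexamethasone in wild type and for dexamethasone with GA3. The gene tables list both loci without a symbol, and their place in the family is taken from general knowledge.

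Glutaredoxins are small oxidoreductases that use glutathione to reduce disulfide bonds or to bind iron-sulfur clusters. The CC type, named after its active site, occurs in land plants and is distinct from the older CPYC and CGFS types. Its best known Arabidopsis members, ROXY1, ROXY2 and GRX480, interact with TGA transcription factors. ROXY1 acts in petal development, both ROXY genes act in anthers, and GRX480 links salicylic acid to jasmonate signalling. Several other genes of this type are known to respond to nitrate and to cytokinin in roots. Cytokinin acts through type-B response regulators such as ARR1, which switch on target genes. DELLA proteins are the repressors that gibberellin removes, and they bind transcription factors.

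The line 35S::ARR1ΔDDK:GR, in the Columbia-0 background, drives from the constitutive 35S promoter a form of ARR1 that lacks its regulatory domain and is fused to a glucocorticoid receptor, so that dexamethasone (DEX) brings it into the nucleus. Its seedlings received 10 µM paclobutrazol (PAC), which blocks gibberellin synthesis and lets DELLA proteins accumulate, for 18 h, with or without 50 µM GA3, a gibberellin, and for the last 3 h were either given 5 µM DEX or left without it. The 4 groups of the line are called ARR1_PAC_GA_DEX, ARR1_PAC_DEX, ARR1_PAC_GA and ARR1_PAC. The 4 groups of wild type Columbia-0 received PAC, GA3 and the cytokinin N6-benzyladenine (BA) (Col_PAC_GA_BA), PAC and BA (Col_PAC_BA), DEX alone (Col_DEX) or nothing (Col_mock). Where given, PAC was at 10 µM and GA3 at 50 µM for 18 h, and BA or DEX was at 5 µM for 3 h. Seedlings were moved to liquid medium at 5 days and are labelled as 6 days old, and RNA came from whole seedlings. No wild type group had PAC without BA, and Col_DEX had no PAC, so PAC and BA cannot be told apart in wild type, and a difference between the line and wild type in the response to DEX cannot be told apart from one between seedlings with and without PAC. The transcript of the transgene was not checked, because 0 probe sets are named ARR1 in the annotation used.

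Each group had 2 arrays, labelled as biological replicates, for 16 in all, and the number of arrays limits the precision. Values are log2 expression values per probe set, so a difference of 1 is a 2-fold change, and the floor of the table is 2.36. Arrays had medians of 3.08 to 3.12, and Pearson's r between the arrays of a group, taken over probe sets that do not count as replicates, was 0.968 to 0.985. Of 12 marker genes of green tissue, root, seed and flower, 1 had a named probe set, EXPA7 of root hairs, and it lay at 2.36 to 2.82, near the floor, so the tissue label could not be checked. Whole seedlings were measured, so fewer cells that express a gene and less RNA per cell cannot be told apart.

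AT3G62930 was high on the 4 DEX-treated arrays of the line and low or intermediate on the other 12. It measured 7.30 and 8.08 in ARR1_PAC_GA_DEX, against 3.46 and 3.09 in ARR1_PAC_GA. It measured 7.53 and 7.96 in ARR1_PAC_DEX, against 4.46 and 3.33 in ARR1_PAC. The DEX-treated arrays of the line did not overlap with any other array. In wild type, AT3G62930 measured 3.89 and 4.40 in Col_PAC_GA_BA, 4.61 and 6.14 in Col_PAC_BA, 3.92 and 3.80 in Col_DEX, and 3.72 and 4.33 in Col_mock. The 2 arrays of Col_PAC_BA lay far apart, and both were above the other wild type arrays.

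AT2G30540 was high in 4 groups, the DEX-treated line and the BA-treated wild type, and the DEX-treated wild type lay between these and the rest. It measured 6.66 and 6.88 in ARR1_PAC_GA_DEX, against 4.55 and 4.55 in ARR1_PAC_GA. It measured 6.65 and 7.09 in ARR1_PAC_DEX, against 4.57 and 3.99 in ARR1_PAC. All DEX-treated arrays of the line were above all arrays of the line without DEX. In wild type, AT2G30540 measured 6.96 and 6.63 in Col_PAC_GA_BA, 6.60 and 6.92 in Col_PAC_BA, 4.94 and 5.94 in Col_DEX, and 4.27 and 3.96 in Col_mock. Every BA-treated and every DEX-treated wild type array was above both untreated ones.

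**Figure D1:**
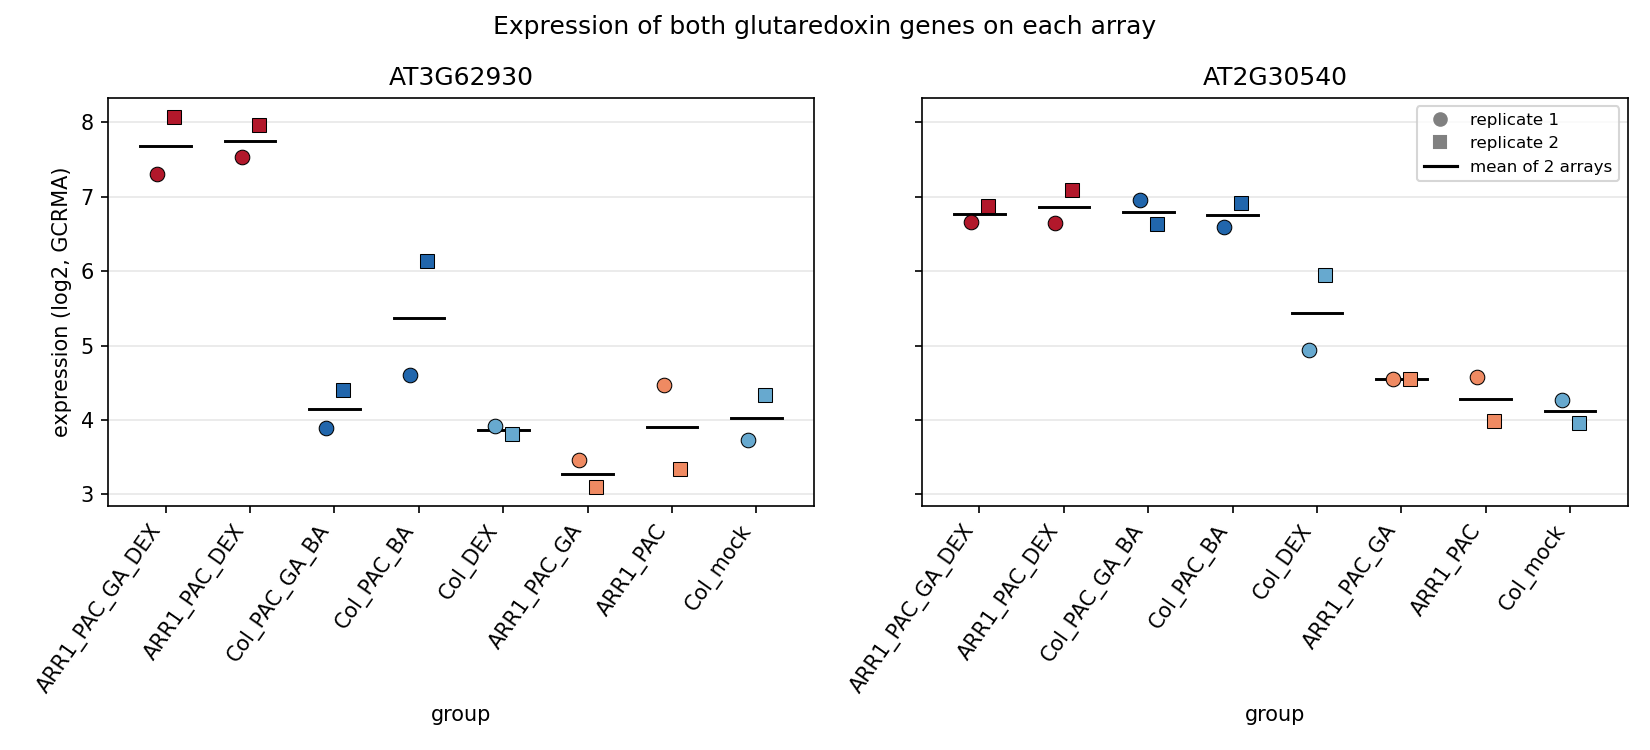
Log2 expression (vertical axis) of AT3G62930 (left) and AT2G30540 (right) on each of 16 arrays, by group (horizontal axis), with a circle for replicate 1, a square for replicate 2 and a bar for the mean of 2 arrays. AT3G62930 averaged 7.69 and 7.75 in the DEX-treated groups of the line and at most 5.37 elsewhere, whereas AT2G30540 averaged 6.76 to 6.87 in the DEX-treated line and the BA-treated wild type alike.

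DEX in the line was the comparison that chose both genes. In PAC, AT3G62930 averaged 7.75 ± 0.30 in ARR1_PAC_DEX and 3.90 ± 0.80 in ARR1_PAC (SD, n = 2 each), a log2 difference of 3.85 with a standard error of 0.47, or 14.4-fold. AT2G30540 averaged 6.87 ± 0.31 in ARR1_PAC_DEX and 4.28 ± 0.41 in ARR1_PAC (SD, n = 2 each), a log2 difference of 2.59 with a standard error of 0.30, or 6.01-fold. In this comparison 9.12% of the 9454 probe sets tested were called higher and 8.31% lower (limma, adjusted p under 0.05). Next to AT3G62930 in the order of named probe sets stood the type-A response regulator gene RR16 at a log2 difference of 5.00 and AT3G15720 at 3.41, and next to AT2G30540 stood AT3G15357 at 2.69 and AT5G47980 at 2.52. With unnamed probe sets counted, AT3G62930 stood 4th and AT2G30540 18th.

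With GA3 beside PAC, both genes were again higher with DEX. AT3G62930 averaged 7.69 ± 0.55 in ARR1_PAC_GA_DEX and 3.28 ± 0.26 in ARR1_PAC_GA (SD, n = 2 each), a log2 difference of 4.42 with a standard error of 0.47, or 21.3-fold, and as it was chosen on these arrays too it gets no test. AT2G30540 was not chosen on them. It averaged 6.77 ± 0.16 in ARR1_PAC_GA_DEX and 4.55 ± 0.0057 in ARR1_PAC_GA (SD, n = 2 each), and rose by 2.22 on the log2 scale with a standard error of 0.30, or 4.65-fold (limma, adjusted p = 0.000400). Here 10.4% of probe sets tested were called higher and 7.66% lower, and AT2G30540 stood 16th among the named ones.

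The question of the design, whether PAC and GA3 alter the response to ARR1, was put to each gene as the DEX response in PAC minus that with GA3. For AT3G62930 this difference was -0.57 on the log2 scale, with a 95% interval from -2.00 to 0.87. For AT2G30540 it was 0.37, with a 95% interval from -0.55 to 1.29. Both rest in part or in whole on values that chose the genes, so they describe them and do not answer the question.

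GA3 itself was compared at each level of the inducer. In the line with DEX, adding GA3 shifted AT3G62930 by -0.06, with a 95% interval from -1.07 to 0.96, and AT2G30540 by -0.10, from -0.75 to 0.55. In the line without DEX the log2 difference with GA3 was -0.62 for AT3G62930, with an interval from -1.64 to 0.39, and 0.27 for AT2G30540, from -0.38 to 0.92. All of these intervals held 0. Each of these differences uses ARR1_PAC_DEX or ARR1_PAC, on which both genes were chosen, so they are descriptions with no test.

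With PAC and BA, the cytokinin given to wild type, AT2G30540 passed the test and AT3G62930 did not, and the difference between the genes was not tested. AT2G30540 averaged 6.76 ± 0.23 in Col_PAC_BA and 4.12 ± 0.22 in Col_mock (SD, n = 2 each), and rose by 2.64 on the log2 scale with a standard error of 0.30, or 6.25-fold (limma, adjusted p = 0.000358). AT3G62930 averaged 5.37 ± 1.09 in Col_PAC_BA and 4.03 ± 0.43 in Col_mock (SD, n = 2 each), a log2 difference of 1.35 with a standard error of 0.47 that did not pass the test (limma, adjusted p = 0.0906). The groups did not overlap for either gene, nor did they for the CC-type gene AT4G15700, which was not called there (limma, adjusted p = 0.543). In this comparison 3.61% of probe sets tested were called higher. For AT3G62930 the value depended on the arrays of Col_PAC_BA: without replicate 1 the log2 difference was 2.11 (limma, adjusted p = 0.0186), and without replicate 2 it was 0.58 (limma, adjusted p = 0.536). Without replicate 1 of Col_mock it was 1.04 (limma, adjusted p = 0.345).

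With PAC, GA3 and BA, AT2G30540 again passed the test, and AT3G62930 was near its untreated level. AT2G30540 averaged 6.80 ± 0.23 in Col_PAC_GA_BA, against the same Col_mock arrays, and rose by 2.68 on the log2 scale with a standard error of 0.30, or 6.41-fold (limma, adjusted p = 0.000211). AT3G62930 averaged 4.15 ± 0.36 in Col_PAC_GA_BA, a log2 difference of 0.12 with a standard error of 0.47 and overlapping arrays (limma, adjusted p = 0.917). Of the probe sets tested, 3.33% were called higher. Both comparisons share the untreated wild type arrays, so their values stand side by side and are not independent.

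Within the BA-treated wild type, only GA3 differed between the groups. AT3G62930 was lower by 1.23 on the log2 scale in Col_PAC_GA_BA than in Col_PAC_BA, with a 95% interval from -2.24 to -0.21, and both arrays with GA3 were below both without it, but the difference did not pass after adjustment (limma, unadjusted p = 0.0217, adjusted p = 0.430). Without replicate 2 of Col_PAC_BA the log2 difference was -0.46, and without replicate 1 it was -1.99. AT2G30540 differed by 0.04, with an interval from -0.61 to 0.69 (limma, adjusted p = 0.967). In this comparison 0.0212% of probe sets tested, 2 in number, were called lower, so few calls of any kind were made.

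Wild type with DEX alone served as the control for the inducer. AT3G62930 averaged 3.86 ± 0.0795 in Col_DEX and 4.03 ± 0.43 in Col_mock (SD, n = 2 each), a log2 difference of -0.17 with a 95% interval from -1.18 to 0.85. As this difference is a term of the net response on which AT3G62930 was also picked, it is a description with no test. AT2G30540 averaged 5.44 ± 0.71 in Col_DEX and 4.12 ± 0.22 in Col_mock (SD, n = 2 each), a log2 difference of 1.33 with a standard error of 0.30, or 2.51-fold. That difference did not pass after adjustment (limma, adjusted p = 0.0790, unadjusted p = 0.000727), although both DEX arrays were above both untreated ones. In this comparison 0.656% of probe sets tested were called higher. Without replicate 1 of Col_DEX, the lower of both, the log2 difference was 1.83 (limma, adjusted p = 0.0114), and without replicate 2 it was 0.82 (limma, adjusted p = 0.875).

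**Figure D2:**
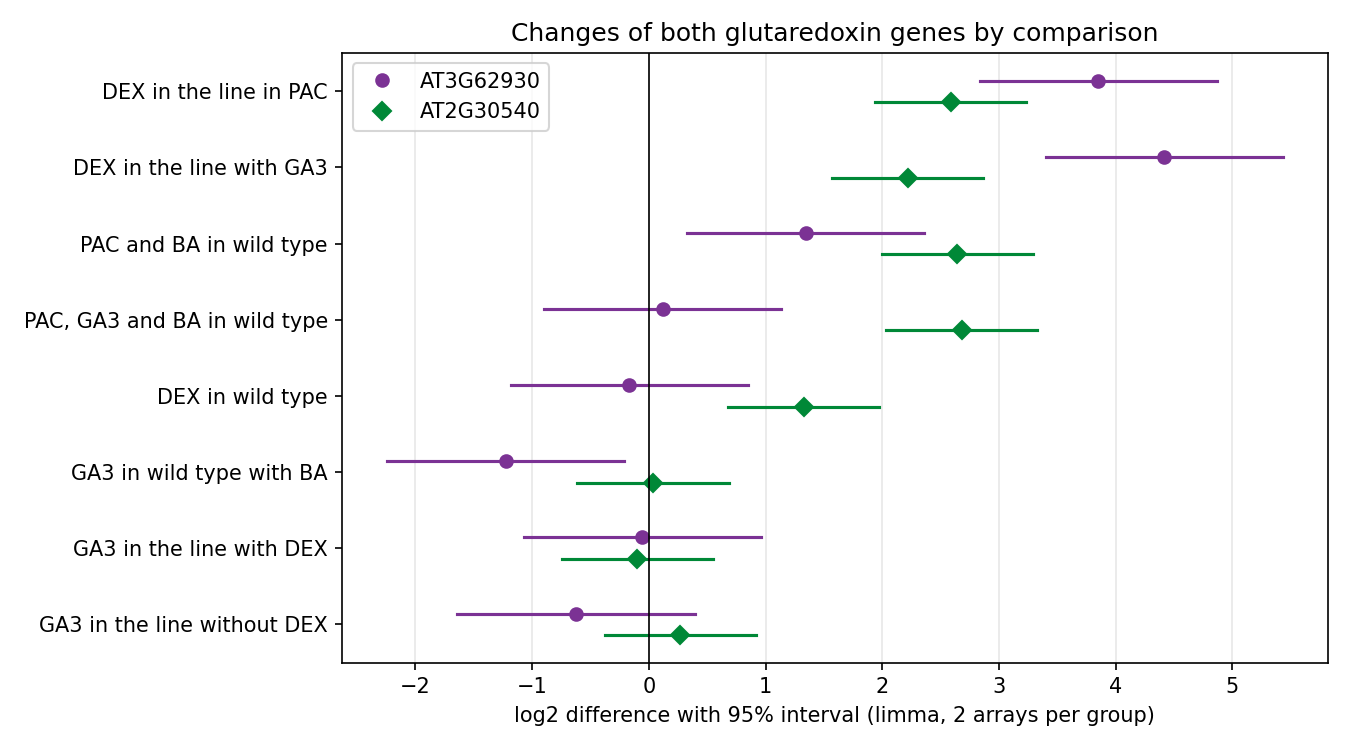
Log2 difference (horizontal axis, with 95% intervals from limma as bars) of AT3G62930 (circles) and AT2G30540 (diamonds) in 8 comparisons (vertical axis), with 2 arrays per group. AT2G30540 lay at 2.22 to 2.68 in both DEX comparisons of the line and both BA comparisons of wild type, whereas AT3G62930 lay at 3.85 and 4.42 in the line and at 1.35 and 0.12 in wild type with BA.

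The DEX response of the line was also set against that of wild type, by subtraction. For AT3G62930 the response in PAC exceeded the wild type response by 4.02 on the log2 scale with a standard error of 0.66, and the response with GA3 exceeded it by 4.58. For AT2G30540 the excess was 1.26 in PAC, with a 95% interval from 0.34 to 2.18, and 0.89 with GA3, from -0.03 to 1.81. Except for AT2G30540 with GA3, these values rest on those that chose the genes, so they are descriptions with no test. The excess of AT2G30540 with GA3 did not pass after adjustment (limma, adjusted p = 0.273).

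Activated ARR1 and BA were compared directly, with and without GA3. AT3G62930 was 5.19-fold higher in ARR1_PAC_DEX than in Col_PAC_BA, a log2 difference of 2.38 with a 95% interval from 1.36 to 3.39. It was 11.7-fold higher in ARR1_PAC_GA_DEX than in Col_PAC_GA_BA, a log2 difference of 3.54 with an interval from 2.53 to 4.56. For AT2G30540 the log2 differences were 0.11, with an interval from -0.54 to 0.75, and -0.03, with an interval from -0.68 to 0.62. These pairs differ in genotype as well as in agent. AT3G62930 was chosen on both DEX-treated groups of the line and AT2G30540 on ARR1_PAC_DEX, so the differences that use these groups are descriptions with no test.

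The line without DEX was also set against untreated wild type, although the line had PAC and wild type did not. AT3G62930 differed by -0.13 in ARR1_PAC, with a 95% interval from -1.14 to 0.89, and by -0.75 in ARR1_PAC_GA, from -1.77 to 0.26. AT2G30540 differed by 0.16 in ARR1_PAC, from -0.48 to 0.81, and by 0.43 in ARR1_PAC_GA, from -0.21 to 1.08. All of these intervals held 0. With the line in PAC in place of untreated wild type as the baseline of BA, the log2 difference was 1.47 for AT3G62930 and 2.48 for AT2G30540, and with GA3 in both groups it was 0.87 and 2.25. These BA pairs differ in genotype as well as in BA. Except for AT2G30540 in the pairs with ARR1_PAC_GA, the values of this paragraph use groups that chose the genes. All are given as descriptions with no test.

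In the order of mean levels of AT3G62930, ARR1_PAC_DEX and ARR1_PAC_GA_DEX formed the top and differed by less than their spread. Col_PAC_BA followed, 2.32 below ARR1_PAC_GA_DEX with a 95% interval from 1.30 to 3.33. The groups were sorted by these same means, and both top groups were used to choose the gene, so gaps between neighbours are descriptions with no test. Col_PAC_GA_BA was a further 1.23 lower, a gap that depended on single arrays of Col_PAC_BA as given above. Col_PAC_GA_BA, Col_mock, ARR1_PAC and Col_DEX followed with overlapping arrays between neighbours. ARR1_PAC_GA came last, 0.59 below Col_DEX, with arrays that did not overlap and a 95% interval from -0.43 to 1.60 that held 0.

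AT2G30540 had another order, also sorted by its own means, so its gaps are descriptions too. ARR1_PAC_DEX, Col_PAC_GA_BA, ARR1_PAC_GA_DEX and Col_PAC_BA had means within 0.11 of each other. Col_DEX was 1.32 below Col_PAC_BA, with a 95% interval from 0.67 to 1.97, and ARR1_PAC_GA was 0.89 below Col_DEX, from 0.24 to 1.54. ARR1_PAC_GA, ARR1_PAC and Col_mock had overlapping arrays between neighbours. ARR1_PAC_GA and Col_mock did not overlap, and their log2 difference was 0.43, with a 95% interval from -0.21 to 1.08 that held 0.

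Replicate arrays of these genes varied more than those of most genes. The residual SD was 0.57 for AT3G62930, larger than for 97.6% of probe sets tested, and 0.34 for AT2G30540, larger than for 87.8%. The median over probe sets tested was 0.21.

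The rest of the CC-type family was read from a list of 21 loci. Beside AT3G62930 and AT2G30540, 15 had a named probe set, 4 had none, and 7 of the 15 passed the filter on low values, which asked that 2 or more arrays reach a log2 value of 4. The 8 that did not pass were dim throughout. ROXY1 lay at 2.49 to 2.69, ROXY2 at 2.36 to 3.33, and GRX480, which binds TGA factors, at 2.70 to 4.15. AT2G47880 lay at 2.51 to 4.16, AT4G33040 at 2.47 to 3.12, AT5G11930 at 2.39 to 2.96, AT3G62960 at 2.36 to 2.55, and AT3G62950 was at 2.36 on all 16 arrays.

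In PAC, 0 of the 7 other CC-type genes passed the test with DEX in the line (limma), beside 9.12% of all probe sets called higher and 8.31% called lower. Before adjustment, p was under 0.05 for 2 of the 7. The number called after adjustment was 2 without replicate 1 of ARR1_PAC and 1 with the replicate number as a block. The 2 genes under 0.05 before adjustment were AT4G15680, which measured 6.52 and 6.14 in ARR1_PAC_DEX, against 5.84 and 5.06 in ARR1_PAC, and AT4G15660, which measured 3.94 and 3.96 in ARR1_PAC_DEX, against 3.74 and 2.99 in ARR1_PAC. The log2 differences of the 7 had a median of 0.41, against -0.03 over all probe sets tested, and 5 of 7 were above 0. With GA3, 4 of the 7 were called higher and 0 lower, beside 10.4% and 7.66% of all probe sets, with a median of 1.13 against -0.02 over all probe sets tested. The filter bore on these calls, so each is given with its value when no filter was used and every probe set was tested. AT4G15660 measured 4.57 and 4.87 in ARR1_PAC_GA_DEX, against 3.58 and 3.32 in ARR1_PAC_GA, and differed by 1.27 with a standard error of 0.23 (limma, adjusted p = 0.00257, and 0.0182 with no filter). AT4G15680 measured 6.90 and 6.92 in ARR1_PAC_GA_DEX, against 5.84 and 5.71 in ARR1_PAC_GA, and differed by 1.13 with a standard error of 0.30 (limma, adjusted p = 0.0198, and 0.0970 with no filter). For both genes the groups did not overlap.

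AT4G15700 measured 4.77 and 5.39 in ARR1_PAC_GA_DEX, against 3.72 and 3.82 in ARR1_PAC_GA, and differed by 1.31 with a standard error of 0.31 (limma, adjusted p = 0.0120, and 0.0693 with no filter). AT1G03020 measured 5.20 and 3.58 in ARR1_PAC_GA_DEX, against 2.78 and 2.51 in ARR1_PAC_GA, and differed by 1.74 with a standard error of 0.44 (limma, adjusted p = 0.0998 with no filter). Its DEX-treated arrays were far apart. AT1G03020 passed the filter through 1 array of ARR1_PAC_GA_DEX and 1 of Col_PAC_BA, and AT4G15660 through both arrays of ARR1_PAC_GA_DEX and 1 of Col_PAC_BA, so the filter admitted them through a group in which they are high, and the count of 4 and their calls with the filter are descriptions. When each array of the comparison was left out in turn, the number of these genes called was 1 to 2, and with no filter it was 1, AT4G15660, which was also called without each array. AT4G15690 differed by 0.52 (limma, adjusted p = 0.119), AT5G18600 by 0.02 and AT1G06830 by -0.34.

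AT4G15660, AT4G15670, AT4G15680, AT4G15690 and AT4G15700 follow one another in the gene order of the RefSeq table for TAIR10.1. AT4G15670 had no named probe set. The proteins of this cluster are close relatives, and whether their probe sets measure more than 1 of the genes was not tested.

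In wild type, AT1G06830 was called with PAC and BA. It measured 8.37 and 8.46 in Col_PAC_BA, against 7.35 and 7.34 in Col_mock, and rose by 1.07 with a standard error of 0.24 (limma, adjusted p = 0.0180), beside 3.61% of all probe sets. It was not called in the line, and its call in wild type was lost with no filter (adjusted p = 0.0643) and without replicate 2 of Col_PAC_BA or either array of Col_mock (0.0832 to 0.104). All 7 had log2 differences above 0, with a median of 0.59 against -0.08 over all probe sets tested. AT1G03020 and AT4G15660 passed the filter partly through Col_PAC_BA, so this count and median are descriptions. With PAC, GA3 and BA limma called 0 of 7, beside 3.33% of all probe sets called higher. There 1, again AT1G06830, had an unadjusted p under 0.05, and the median was 0.18 against -0.05. Between Col_PAC_GA_BA and Col_PAC_BA, limma called 0 of 7, beside 0.0212% of all probe sets called lower. In that comparison 2, AT4G15690 and AT4G15700, had an unadjusted p under 0.05, both lower with GA3. There 6 of 7 were below 0, and the median was -0.53 against 0.04, again as descriptions, since Col_PAC_BA is a group of this comparison too. With DEX in wild type 0 of 7 were called, beside 0.656% of all probe sets called higher. There 0 had an unadjusted p under 0.05, and the median was -0.08 against -0.02. Each count of 0 of 7 is close to the share beside it.

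**Figure D3:**
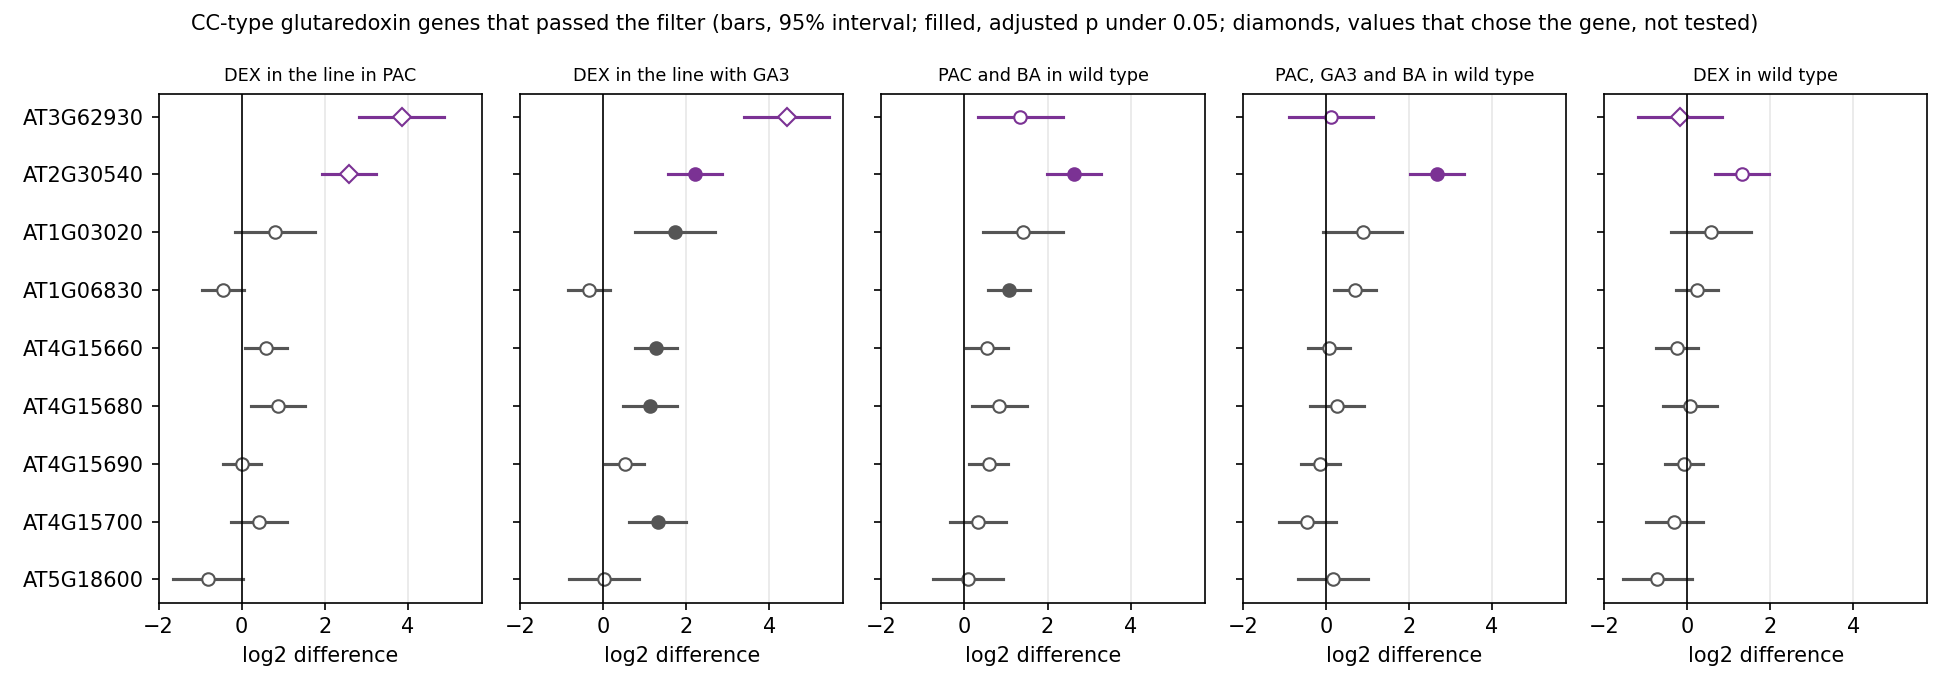
Log2 differences (horizontal axes, with 95% intervals as bars) of the 9 CC-type glutaredoxin genes that passed the filter (vertical axis), in 5 comparisons. Filled circles passed the test at an adjusted p under 0.05, open circles did not, and open diamonds are values used in choosing a gene and were not tested. AT1G03020 and AT4G15660 passed the filter partly through ARR1_PAC_GA_DEX and partly through Col_PAC_BA. AT3G62930 and AT2G30540 are in purple, and with GA3 beside DEX the other genes ranged from -0.34 to 1.74.

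Other glutaredoxins and the genes around them were also counted. Of 10 CPYC and CGFS glutaredoxins, 5 were measured and tested, and 0 were called by limma in any of the 6 comparisons with a test, with medians from -0.24 to 0.24. The share of all probe sets called higher in those comparisons ran from 0.656% with DEX in wild type to 10.4% with DEX and GA3 in the line, and 0.0212% were called lower between Col_PAC_GA_BA and Col_PAC_BA, so 0 of 5 is close to the background. At an unadjusted p under 0.05 there was 1 of the 5 with DEX in the line in PAC, 1 with PAC and BA and 1 with PAC, GA3 and BA, each a different gene. Of 10 TGA factors, 0 had a named probe set, and likewise 0 of 7 genes of nitrate uptake and reduction, so these were not examined. Of 4 genes of glutathione synthesis and reduction, 2 were tested. GR, a glutathione reductase, fell by 0.94 with a standard error of 0.22 with PAC and BA in wild type (limma, adjusted p = 0.0240). In that comparison 827 of the 9454 probe sets tested were called, higher or lower. The call of GR was the only one of this list in these comparisons and was lost with no filter (limma, adjusted p = 0.0766). Of 10 type-A response regulators, genes that ARR1 and cytokinin are known to induce, RR16 and ARR15 were measured. RR16 and ARR15 were both called higher in the DEX comparisons of the line and the BA comparisons of wild type. ARR15 passed the filter only through groups in which it is high, the DEX-treated line and 1 array of each BA-treated group, so its calls with the filter are descriptions. With no filter its DEX calls in the line held (limma, adjusted p = 0.00108 in PAC and 0.000503 with GA3). Its BA calls were lost (limma, adjusted p = 0.0630 with PAC and BA, 0.0627 with GA3 added). With DEX in wild type RR16 had a log2 difference of 1.22, called at an adjusted p of 0.0484 (limma) and not with no filter (0.210), beside the 1.33 of AT2G30540, while ARR15 differed by 0.05.

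In the gene order of the RefSeq table AT3G62930 is followed by AT3G62940 and then by the CC-type genes AT3G62950 and AT3G62960. The gene before it, AT3G62920, lay at 4.32 to 5.58 over all arrays and differed by -0.36 with DEX in PAC (limma, adjusted p = 0.293). AT3G62950 and AT3G62960 were near the floor throughout. The gene before AT2G30540, AT2G30530, lay at 4.16 to 5.07 and differed by -0.05 (limma, adjusted p = 0.909).

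Likeness of profile was measured as Pearson's r over the 8 group means, among named probe sets that were tested, and the same arrays underlie every value. The 5 most like AT3G62930 were AT3G15010 (r = 0.990), TRM82 (0.988), AT2G40700 (0.986), AT3G19630 (0.985) and AT5G54970 (0.985). Over the 16 single arrays r ranged from 0.843 for TRM82 to 0.953 for AT5G54970. TRM82 is named after a yeast tRNA methyltransferase subunit. The group means of these genes spanned 0.74 to 1.69 on the log2 scale, against 4.47 for AT3G62930, so their profiles match in shape and not in size.

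The 5 most like AT2G30540 were AT5G59845 (r = 0.985), AT3G08030 (0.975), AT1G64590 (0.973), AT4G33100 (0.961) and AT5G52750 (0.958). Over 16 arrays r ranged from 0.640 for AT5G59845 to 0.904 for AT3G08030. Their group means spanned 0.37 to 2.75, against 2.75 for AT2G30540. AT3G62930 and AT2G30540 correlated with each other at 0.709 over groups and 0.690 over arrays, and neither was among the 5 most like the other. Within the family, over groups, AT3G62930 was most like AT4G15680 (0.881) and AT2G30540 most like AT1G03020 (0.882). Over arrays AT3G62930 was most like AT4G15660 (0.819, against 0.788 for AT4G15680), and AT2G30540 again most like AT1G03020 (0.735).

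**Figure D4:**
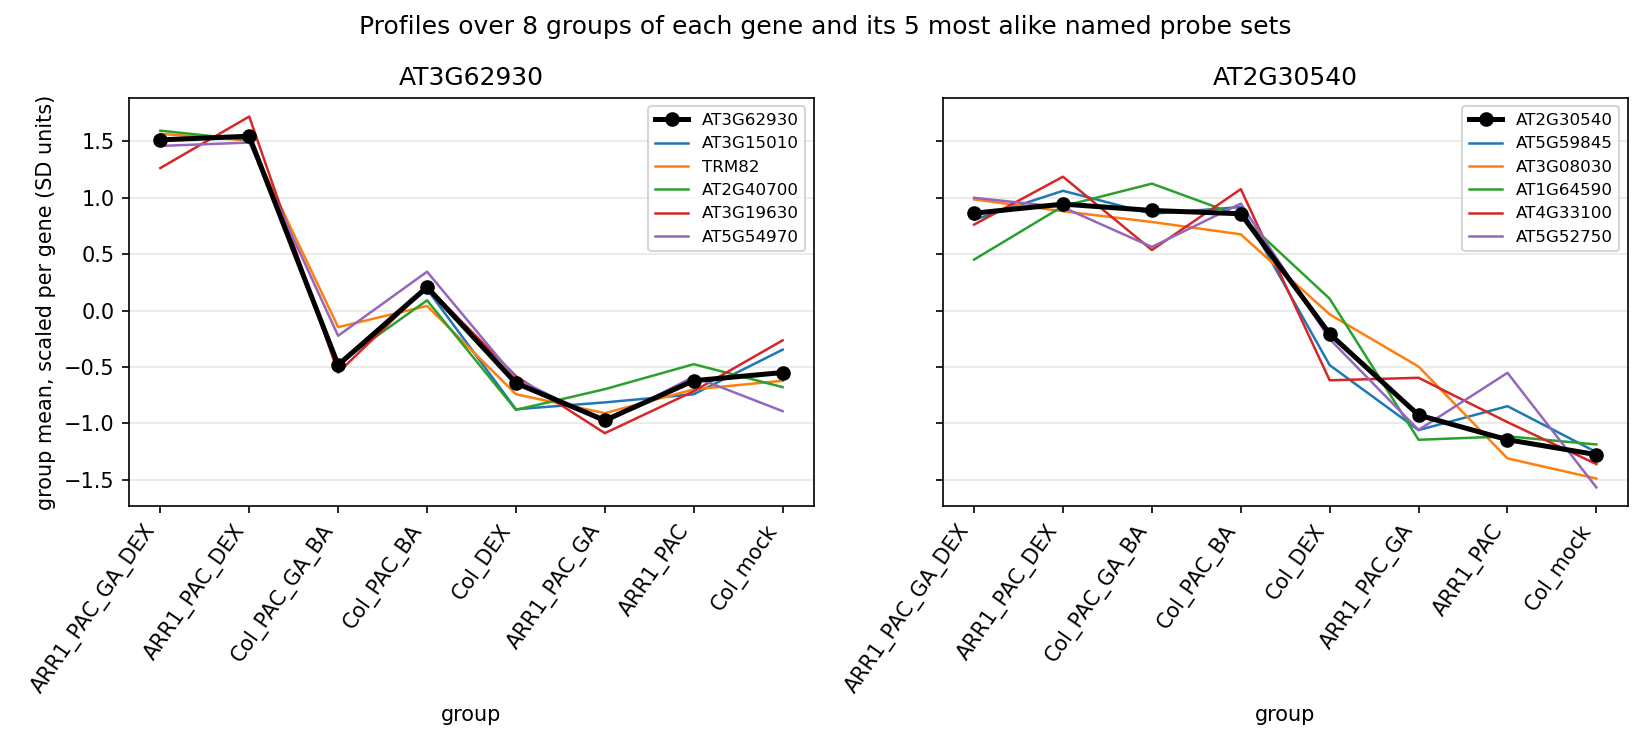
Group means scaled to each gene's own mean and SD over 8 groups (vertical axis, SD units) by group (horizontal axis), for AT3G62930 (left) and AT2G30540 (right) in black and the 5 named probe sets most like each in colour. The lowest r over groups was 0.985 on the left and 0.958 on the right.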

How the data were processed

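The authors deposited 1 log2 expression value per probe set and array, computed from Affymetrix ATH1 arrays with GCRMA, which the submitters' processing notes name and which corrects background, normalizes across arrays and summarises probes. Its version is not given in the sources used here. There were 22810 probe sets on 16 arrays, and every column belonged to a sample.

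The 64 control probe sets were left out, and a probe set was tested where 2 or more arrays reached a log2 value of 4, which kept 9454 of 22746. Names came from the platform annotation, updated through RefSeq gene tables (TAIR10.1), only where a probe set had 1 gene, which left 4542 tested probe sets unnamed. The files name no genome build.

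Group means were fitted to all 16 arrays by lmFit, contrasts.fit and eBayes (limma 3.58.1, R 4.3.3), with 8 residual and 4.66 prior degrees of freedom. Tests were two-sided and adjusted by Benjamini and Hochberg over all 9454. The code was checked on simulated data with known changes. Nothing in the labels says how the biological replicates were grown. The spread behind a p-value is one value per probe set, pooled over all 8 groups and moderated by eBayes. It reflects only how far the 2 arrays within groups lie apart, which may be technical, and it is not the spread of just the groups compared. Plots used Python 3.11.15 with matplotlib 3.10.9.

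Both genes, the gene lists and the tests were chosen with earlier results of these data known. The genes named are both genes, the members of the lists, the 5 named probe sets most like each, and the neighbours of each in rank and in gene order.

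The tested results of both genes, the counts of other CC-type genes called with DEX in the line and, chosen after seeing the data, the calls of the other genes named were recomputed without the filter, with a filter at 6, after quantile normalization or 75th percentile centring, with a trended and robust eBayes, with a block for the replicate number, from the arrays of the comparison alone, and without each array. A Z test was also run, in which each difference of standardised group means was divided by its spread over probe sets (threshold 1.96), one reading of the Z-score transformation that the study's methods name.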

Additional observations from a re-analysis of the deposited data

Results flagged for a closer look

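For AT3G62930 the DEX response of the line exceeded the DEX response of wild type by 4.0156 on the log2 scale in PAC (SE 0.663) and by 4.5816 with GA3 (SE 0.663). Both values were used when the gene was chosen, so they describe it and carry no test. For AT4G15660 the response of the line with GA3 exceeded that of wild type by 1.5081 (SE 0.328, adjusted p = 0.0231 by limma), with 2 of 2 arrays of ARR1_PAC_GA_DEX above both of ARR1_PAC_GA. This gene passed the filter on low values through the group in which it is high, and with no filter the adjusted p was 0.0814. Wild type seedlings given DEX had no PAC, so in each case genotype and PAC cannot be told apart.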

How the results depend on the processing

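The rise of AT2G30540 with DEX and GA3 in the line, with PAC and BA in wild type and with PAC, GA3 and BA in wild type kept its direction and its call under all 12 alternatives each. Leaving out each array gave 2.1068 to 2.3262, 2.4809 to 2.8074 and 2.5155 to 2.8456 on the log2 scale. With DEX in wild type, AT2G30540 gave 0.8229 to 1.8282 without single arrays, passing without Col_DEX replicate 1, and 1.3256 by the Z test, past its threshold (z = 3.94). AT3G62930 gave -0.4712 to 0.1383 there without single arrays, above 0 without Col_mock replicate 2. It had no value with only the arrays of that comparison, where it was left out as dim. With PAC and BA it gave 0.578 to 2.1125, passing without Col_PAC_BA replicate 1, and 1.3453 by the Z test, past its threshold (z = 2.83). With PAC, GA3 and BA it gave -0.1864 to 0.4231, below 0 without Col_mock replicate 1 or Col_PAC_GA_BA replicate 2. With GA3 in BA-treated wild type it gave -1.9942 to -0.4597, and -1.2269 by the Z test, past its threshold (z = -3.91), and AT2G30540 gave -0.1287 to 0.2015, and -0.0288 with 75th percentile centring.

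Of the 7 other CC-type genes, the number called with DEX in PAC was 0 and ranged from 0 to 2 without single arrays, with 2 without ARR1_PAC replicate 1. With the replicate block it was 1, AT4G15680. With GA3 the number was 4, and 1 to 2 without single arrays, 1 with no filter (AT4G15660), 1 of 3 tested with a floor of 6 (AT4G15680), and 4 with the replicate block. The labels number replicates but do not say that a number pairs arrays. The correlation of same-numbered deviations over 28 pairs of groups ran from -0.331 to 0.480 and was above 0.1 in 21 but not in all, so the numbers were not taken as pairs. The replicate block changed no other call that was recomputed, and moved the number of probe sets called with DEX in the line to 1888 in PAC, against 1648, and to 1948 with GA3, against 1707. Recomputed after seeing the data, the calls of RR16 in the DEX comparisons of the line and both BA comparisons, of ARR15 in the DEX comparisons of the line, and of AT4G15660 with DEX and GA3 held under every alternative that gave a value. The calls of RR16 with DEX in wild type, ARR15 in both BA comparisons, AT1G06830, GR, AT1G03020, AT4G15680, AT4G15700 and the difference of responses of AT4G15660 were each lost under 3 to 6 alternatives, with no change of sign. The cause was not tested where a result changed, except that a left-out array leaves fewer samples. Scaling alternatives moved the median of all probe sets by less than 0.1 (log2), the most being -0.0658. With 2 arrays per group, the remaining array of a shortened group was assumed to vary like the others.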
